A study of Mus musculus with 6 samples.

Results

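The genes described here are those of collagens, laminins and the other main proteins of the basement membrane in mouse S1 (primary somatosensory) cortex. They were picked by symbol, as every gene whose name has the form of a collagen chain or of a laminin chain, together with Nid1, Nid2, Hspg2, Agrn, Dcn, Lum and Fn1. The table listed 60 such genes out of 14824, with 43 collagen chains, 11 laminin chains and 6 others. They were divided into 11 fibrillar collagens, 23 basement membrane chains and 26 other members. Another 2 genes with such names, Col10a1 and Fn1, were not analysed here.

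Collagens are proteins of 3 chains wound into a helix, and each chain is the product of its own gene. Fibrillar collagens, chiefly types I, III and V, form the fibres that give connective tissue its strength, and in the brain they are made mostly by fibroblasts of the meninges and of the sheaths of larger vessels. Basement membranes are thin sheets under endothelium and around pericytes and astrocyte endfeet, in which a network of laminin and a network of type IV collagen are joined by nidogens, perlecan and agrin. They outline every capillary of the cortex, and endothelial cells, pericytes and astrocytes contribute different chains to them.

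Bulk RNA-seq compared 3 non-stimulated libraries (NS) with 3 libraries after whisker stimulation (WS). All 6 came from WT mice at postnatal day 21, of the strain spelled C57B6 in the labels and C57BL/6 in the study's methods. In WS the whiskers were stimulated daily, the tissue was collected 90 min after the last stimulation, and NS libraries are labelled with no treatment. The study looked at how sensory activity shapes the vessels of the cortex, and the comparison here asks whether transcripts of the vessel wall and meningeal matrix differ between stimulated and non-stimulated cortex. The labels name neurons, astrocytes, endothelial cells, oligodendrocytes, pericytes and microglia as the cells in the tissue and do not mention fibroblasts. The study's captions give the RNA-seq replicates as male mice and use NS for the side of the cortex that was not stimulated. Which NS and WS libraries share a mouse is not named in the labels.

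Read counts were computed back from the mean, the SD and the z-score of each library, and summed to between 15660395 and 17276168 per library. Levels are given as CPM, counts scaled to the library total after TMM normalization, and each ± is the SD over 3 libraries. Cortical neuron markers were abundant in every library, with the vesicular glutamate transporter gene Slc17a7 at 1912 to 2545 CPM and the neuronal gene Rbfox3 at 334 to 416 CPM in the 6 libraries. In bulk tissue, fewer cells of a type and less RNA per cell cannot be told apart.

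The sequences just upstream of the RefSeq start of 3 of the members with the smallest p-values are shown, on GRCm38.p6, the same assembly as the mm10 of the labels. Where the transcripts start in these libraries was not measured. Each is the 250 bases before the RefSeq start, 5′ to 3′ on the strand of the gene, and none of these bases lies in an annotated GENCODE exon. Capitals mark matches on either strand to any of 3 promoter motifs, which are the TATA box with the letters TATAAA, the CCAAT box by its own name, and the GC box with the letters GGGCGG. The window of Col3a1 lies at chr1:45311288-45311537 on the plus strand, that of Col15a1 at chr4:47207762-47208011 on the plus strand and that of Lama2 at chr10:27616943-27617192 on the minus strand. The Lama2 window lies inside the gene as GENCODE annotates it, which starts further upstream, at base 27619758. For Col15a1 the start is base 47208012 in RefSeq and 47208161 in GENCODE.
Col3a1: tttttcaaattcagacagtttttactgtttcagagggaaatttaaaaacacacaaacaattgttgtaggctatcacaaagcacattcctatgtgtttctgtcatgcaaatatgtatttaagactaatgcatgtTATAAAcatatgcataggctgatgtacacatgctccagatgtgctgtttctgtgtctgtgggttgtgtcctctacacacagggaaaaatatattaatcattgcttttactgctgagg
Col15a1: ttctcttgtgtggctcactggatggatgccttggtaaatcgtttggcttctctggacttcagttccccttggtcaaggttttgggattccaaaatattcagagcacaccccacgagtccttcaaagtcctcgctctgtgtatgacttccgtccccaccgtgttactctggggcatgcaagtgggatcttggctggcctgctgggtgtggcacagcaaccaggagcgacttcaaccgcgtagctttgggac
Lama2: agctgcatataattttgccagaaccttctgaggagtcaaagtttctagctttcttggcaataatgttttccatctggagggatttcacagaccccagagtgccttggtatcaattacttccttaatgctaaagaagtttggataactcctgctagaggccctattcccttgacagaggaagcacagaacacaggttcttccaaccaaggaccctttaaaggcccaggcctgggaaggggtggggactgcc
The Col3a1 window held 1 TATA box, while the windows of Col15a1 and Lama2 held none of the 3 motifs. Over 32851 RefSeq windows of the same kind, the TATA box was present in 12.4%, the CCAAT box in 33.8% and the GC box in 32.7%. Such a match is a string of letters, not a measured binding site. RefSeq windows were matched for 42 of the members.

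The genes of type IV collagen lie in head-to-head pairs, and the 2 abundant chains, Col4a1 and Col4a2, are read from opposite strands out of the same short stretch of DNA. In the GENCODE annotation their first exons share 22 bases at chr8:11312805-11312826, shown because reads here could come from either gene. The bases are those of the plus strand in RefSeq, and capitals again mark a GC box.
Col4a1 and Col4a2: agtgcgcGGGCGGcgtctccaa
The starts of Col4a3 and Col4a4 are separated by 71 bases and those of Col4a5 and Col4a6 by 1308 bases. Whether reads were counted by strand is not given in the sources used here, so reads from the overlapping exons of Col4a1 and Col4a2 could be assigned to either gene.

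No member passed the threshold of the study, which is an adjusted p under 0.05 with an absolute log2 fold change above 1. Among 55 members with enough reads to be tested, 0 were called by edgeR's quasi-likelihood test, against 0.0291% of all 13747 genes tested, and DESeq2 also called 0. The lowest adjusted p of a member was 0.9998 (edgeR's quasi-likelihood test, adjusted by Benjamini-Hochberg over all genes tested). In simulated counts for the same genes, 88.1% of genes changed by 1 on the log2 scale were recovered at an adjusted p under 0.05. The changed genes were not drawn from those with few counts, and recovery was counted without the threshold on the fold change. That share therefore does not give how often a member changed by 1 would be called. The fitted changes of the members were all smaller than 1 in size, from -0.46 to 0.48.

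Below that threshold, the members lay towards higher levels in WS. At an unadjusted p under 0.05, 4 members (7.27% of those tested) were higher in WS, against 0.866% of all genes, and they were the fibrillar chains Col3a1 and Col1a2 and the basement membrane chains Col15a1 and Lama2. None of the members was lower in WS at that p in edgeR's quasi-likelihood test, against 0.327% of all genes. With the replicate number as a block, 7 members (12.7%) were higher at an unadjusted p under 0.05, against 1.38% of all genes, and the additional ones were Col11a2, Col1a1 and Col4a2. No member was lower with the block (edgeR's quasi-likelihood test, unadjusted p under 0.05), against 0.386% of all genes. DESeq2 gave 2 members, Col1a2 and Col3a1. When NS replicate 3 was left out, 1 member, Col4a2, had an unadjusted p under 0.05, and 0 of the former 4 did. When any other library was left out, 4 or 5 members passed, of which 1 to 3 were among those 4. Without WS replicate 2, 1 of them, Col4a4, was lower in WS. The fitted change was above 0 for 40 of 55 members (72.7%) and for 53.0% of all genes tested, with medians of 0.08 and 0.01 on the log2 scale.

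A separate reading of the same data, without a model, counted the members whose libraries did not overlap between the groups. All 3 WS values lay above all 3 NS values for 8 members (14.5%), against 3.11% of all genes, and these were Col15a1, Col3a1, Lama2, Col1a2, Col5a2, Lamb2, Col14a1 and Nid1. The reverse was seen for 1 member (1.82%), Col13a1, against 3.16% of all genes. For each of these 9 the two-sided exact permutation test gave p = 0.1, which is the smallest that 3 against 3 libraries allow.

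**Figure D1:**
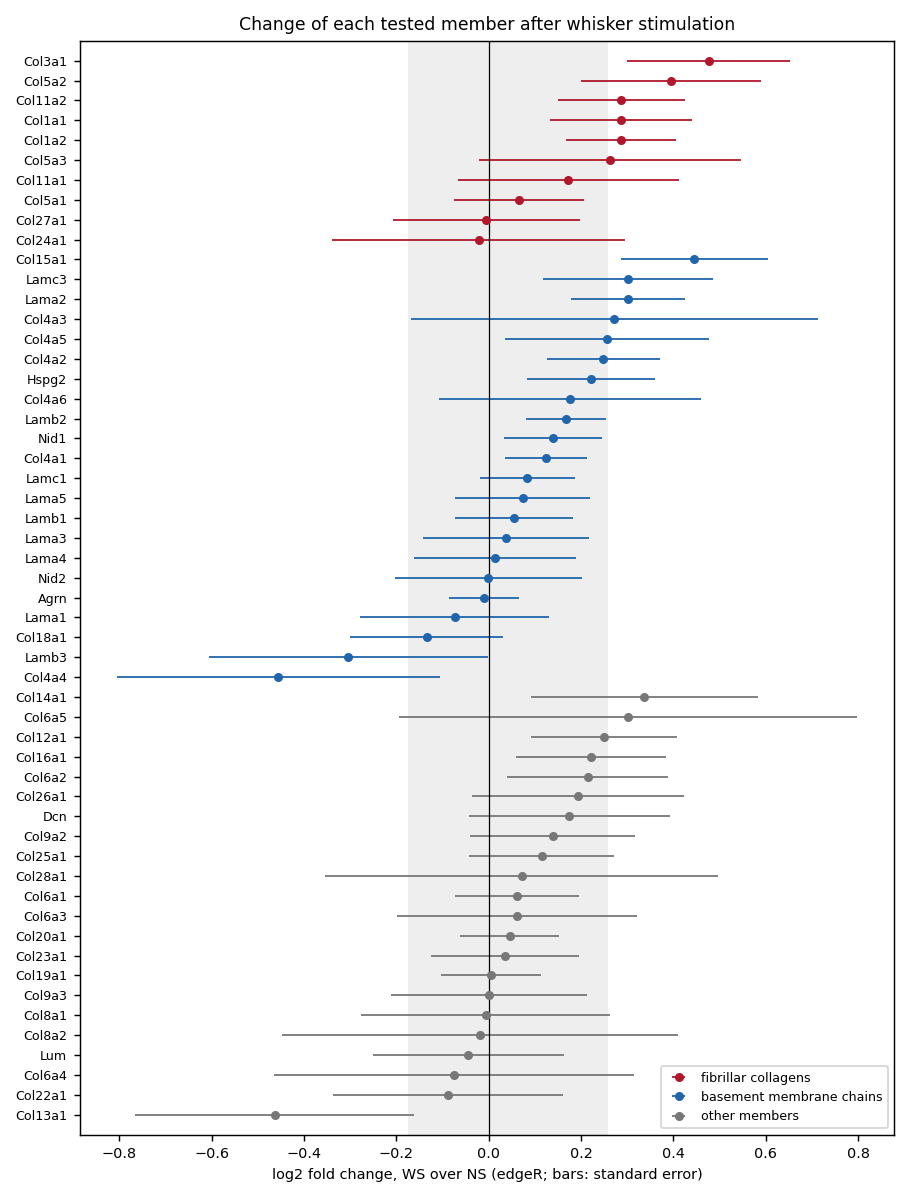
Log2 fold change of WS over NS for the tested members (x axis), with the standard error as a bar, in red for fibrillar collagens, blue for basement membrane chains and grey for other members. The shaded band holds the middle 90% of all genes tested, and the members run from -0.46 for Col13a1 to 0.48 for Col3a1.

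The fibrillar collagens lay highest of the groups. Of 10 tested, 8 had a fitted change above 0, and their median was 0.27 on the log2 scale, against 0.08 for the basement membrane chains and 0.06 for the other members. Without NS replicate 1 the fibrillar median was 0.13. Within the basement membrane chains, the median was 0.21 for the 6 type IV collagens and 0.05 for the 11 laminin chains. The difference between the groups' medians was not tested. Summed over the fibrillar chains, the level was 83.3, 82.4 and 73.4 CPM in NS replicates 1, 2 and 3 and 97.2, 88.5 and 98.0 CPM in WS replicates 1, 2 and 3. The WS sums were thus all above the NS sums, at 94.5 ± 5.27 CPM against 79.7 ± 5.51 CPM, a log2 ratio of 0.25. The sum was carried by few chains, since Col1a2, Col1a1 and Col5a1 made up 62.7% of it.

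Type I collagen, the main fibre of connective tissue, is built of the chains of Col1a1 and Col1a2. Col1a2 (chr6:4504814-4541544) stood at 23.3, 20.4 and 16.8 CPM in NS and 25.4, 24.7 and 23.7 CPM in WS. Every WS library lay above every NS library, and the lowest was NS replicate 3. The log2 fold change was 0.29 with a standard error of 0.12 (unadjusted p = 0.0335 in edgeR), and 0.17 without NS replicate 3. Col1a1, its partner chain, was at 20.9, 16.8 and 13.8 CPM in NS and 24.1, 20.8 and 17.8 CPM in WS. Here the groups overlapped, but in each group replicate 1 was highest and replicate 3 lowest, and each WS library was above the NS library of its own number. Its log2 fold change was also 0.29, with a standard error of 0.15 (unadjusted p = 0.0882, and 0.0186 with the replicate block). It ran from 0.15 without NS replicate 3 to 0.45 without NS replicate 1. The ratio of Col1a1 to Col1a2, taken on CPM that were not scaled for length, was 0.846 ± 0.0440 in NS and 0.848 ± 0.0972 in WS, which differed by less than either SD.

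Type III collagen, which forms thin reticular fibres with type I, has the single chain of Col3a1 (chr1:45311538-45349706). It was measured at 6.37, 6.30 and 5.22 CPM in NS and 7.82, 6.80 and 10.3 CPM in WS. WS replicate 3 was the highest library and the groups did not overlap. With a log2 fold change of 0.48 and a standard error of 0.18 it had the highest fitted change of the 55 tested members (unadjusted p = 0.0198 in edgeR). The change was 0.29 to 0.59 when single libraries were left out. Its exons overlap those of an annotated gene on the same strand, Gm47302, so some of these reads could belong to that gene.

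Type V collagen starts and limits fibrils of type I. Its chain Col5a2 stood at 3.40, 2.93 and 2.92 CPM in NS and 3.44, 4.08 and 4.67 CPM in WS. The groups did not overlap, though WS replicate 1 exceeded NS replicate 1 only slightly, and the log2 fold change was 0.40 with a standard error of 0.19 (unadjusted p = 0.0657 in edgeR). The other type V chains, Col5a1 and Col5a3, had fitted changes of 0.07 and 0.26 with overlapping groups. Col11a2, a chain of the cartilage collagen type XI, was at 8.95, 12.2 and 10.8 CPM in NS and 13.4, 11.6 and 13.96 CPM in WS. NS replicate 2 lay above WS replicate 2, and the log2 fold change was 0.29 with a standard error of 0.14 (unadjusted p = 0.0603, and 0.0475 with the replicate block), or 0.18 without NS replicate 1. Col24a1 and Col27a1 had changes of -0.02 and -0.005. Col2a1, the main collagen of cartilage, had 2 to 8 counts per library and was not tested.

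**Figure D2:**
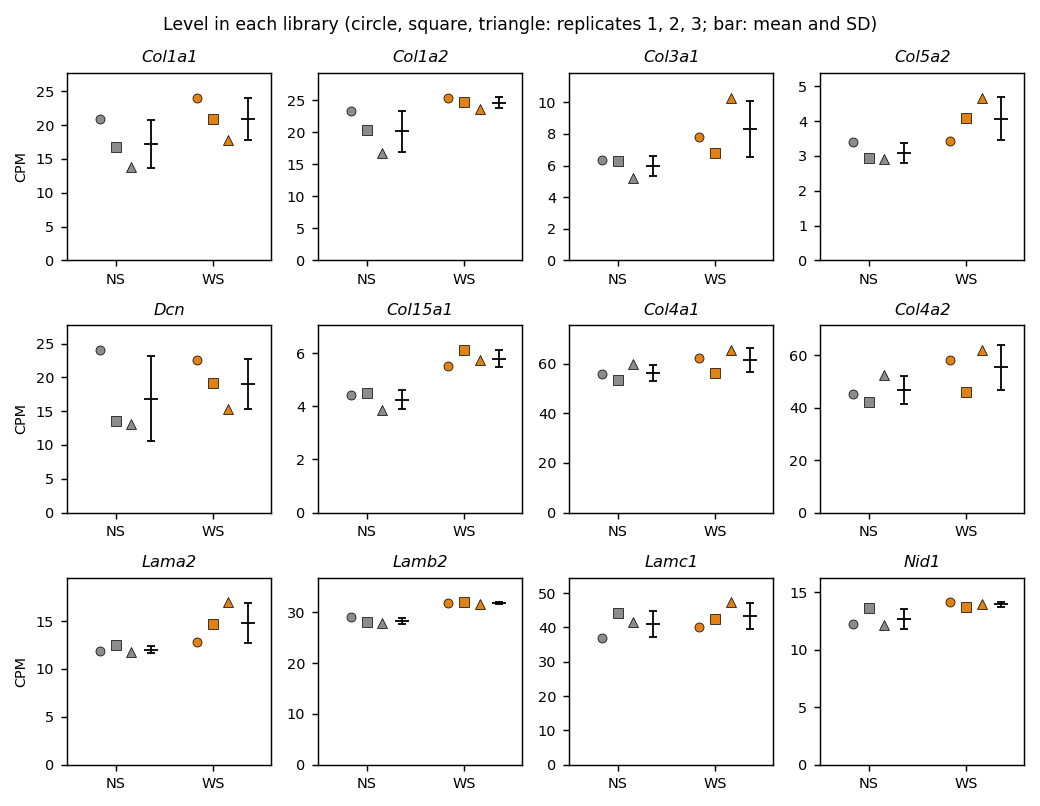
CPM (y axis, from 0) of 12 members in the 3 NS libraries (grey) and 3 WS libraries (orange), with circles, squares and triangles for replicates 1, 2 and 3 and a bar for the mean and SD. Col1a2, Col3a1, Col5a2, Col15a1, Lama2, Lamb2 and Nid1 show no overlap between groups, while Col1a1 and Dcn are highest in replicate 1 and lowest in replicate 3 of WS and of NS.

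The basement membrane chains were the larger group, and their summed levels overlapped between NS and WS. Of 23 tested, 16 had a fitted change above 0 and 7 below, between -0.46 and 0.45, with a median of 0.08 on the log2 scale, or 0.06 without NS replicate 1 and 0.14 without NS replicate 2. Their sum was 405, 426 and 433 CPM in NS and 447, 426 and 471 CPM in WS. Each WS sum was above the NS sum of its own number, though barely for replicate 2, at 426.1 against 425.7 CPM. The lowest WS library lay below the highest NS library, and the log2 ratio of the means, 448 ± 22.7 over 421 ± 14.5 CPM, was 0.09, or 0.05 without WS replicate 3. Agrn alone made up 29.1% of the sum, and without it the log2 ratio was 0.13.

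Type IV collagen is the network that gives basement membranes their tensile strength, and its widespread form consists of Col4a1 and Col4a2 chains. Col4a1 was at 55.8, 53.4 and 59.9 CPM in NS and 62.4, 56.2 and 65.6 CPM in WS. The groups overlapped at NS replicate 3, and the log2 fold change was 0.12 with a standard error of 0.09 (unadjusted p = 0.190 in edgeR), or 0.075 without WS replicate 3. Col4a2 was at 45.1, 42.3 and 52.5 CPM in NS and 58.2, 45.8 and 62.1 CPM in WS. It too overlapped, with WS replicate 2 among the NS values, and its log2 fold change was 0.25 with a standard error of 0.12 (unadjusted p = 0.0672, and 0.0218 with the replicate block), or 0.16 without WS replicate 3. Both chains were lowest in replicate 2 and highest in replicate 3 of each group, and each WS library was above the NS library of its own number. The CPM ratio of Col4a1 to Col4a2 was 1.21 ± 0.0652 in NS and 1.12 ± 0.0942 in WS, and the values overlapped (two-sided exact permutation p = 0.2). The remaining type IV chains, which replace the common ones in specialised basement membranes, were at most 4.93 CPM in any library, with changes of 0.27 for Col4a3, -0.46 for Col4a4, 0.26 for Col4a5 and 0.18 for Col4a6.

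Collagens XV and XVIII sit at the border between basement membrane and the tissue around it and carry heparan or chondroitin sulfate chains. Col15a1 (chr4:47208161-47313167) was at 4.41, 4.49 and 3.85 CPM in NS and 5.51, 6.12 and 5.75 CPM in WS. The groups were well apart. The log2 fold change was 0.45 with a standard error of 0.16 (unadjusted p = 0.0162 in edgeR), the smallest p of all members, and it stayed between 0.38 and 0.49 with single libraries left out. An antisense gene, Gm12426, overlaps its exons. Col18a1, the source of the fragment endostatin, had a change of -0.13 with a standard error of 0.17 and overlapping groups.

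Laminins are trimers of an alpha, a beta and a gamma chain, and the alpha chain tells their sites apart. Lama2, the alpha chain that astrocytes and mural cells lay down around brain vessels, was at 11.9, 12.5 and 11.7 CPM in NS and 12.8, 14.7 and 16.99 CPM in WS. The groups did not overlap, and WS replicate 3 was highest. The log2 fold change was 0.30 with a standard error of 0.12 (unadjusted p = 0.0322 in edgeR), and 0.19 without WS replicate 3. An antisense gene, Gm48084, overlaps the exons of Lama2. Lama4, the alpha chain found throughout the endothelial basement membrane, was at 8.38, 9.80 and 9.63 CPM in NS and 7.76, 8.16 and 12.2 CPM in WS. It was lowest and highest within WS, and the change was 0.01 with a standard error of 0.17, or -0.22 without WS replicate 3. Lama5, a second endothelial alpha chain, was at 8.20, 11.0 and 11.9 CPM in NS and 10.3, 11.1 and 11.3 CPM in WS. These values overlapped, with a change of 0.07 and a standard error of 0.15, or -0.07 without NS replicate 1. The CPM ratio of Lama2 to Lama4 was 1.30 ± 0.1002 in NS and 1.62 ± 0.207 in WS (two-sided exact permutation p = 0.2).

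Among the chains shared by several laminins, Lamb2 had the tightest libraries. It stood at 29.1, 28.0 and 27.95 CPM in NS and 31.8, 32.0 and 31.6 CPM in WS. Every WS library was above every NS library, though the change was only 0.17 with a standard error of 0.09 (unadjusted p = 0.0781 in edgeR). Lamb1, the alternative beta chain, was at 12.99, 11.5 and 9.94 CPM in NS and 11.8, 12.7 and 11.3 CPM in WS. Its NS libraries enclosed all WS libraries, and the change was 0.05 with a standard error of 0.13. Lamc1, the gamma chain of nearly all vascular laminins, was at 36.8, 44.3 and 41.6 CPM in NS and 40.1, 42.5 and 47.4 CPM in WS. The groups overlapped, with a change of 0.08 and a standard error of 0.10, or 0.01 without NS replicate 1 or WS replicate 3 and 0.14 without NS replicate 2 or WS replicate 1. The remaining laminin chains had changes from -0.30 for Lamb3 to 0.30 for Lamc3, and all of their groups overlapped.

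Nidogens bridge the laminin and type IV networks. Nid1 was at 12.2, 13.67 and 12.2 CPM in NS and 14.2, 13.73 and 14.02 CPM in WS. All WS values exceeded those of NS, by little in the case of NS replicate 2, and the change was 0.14 with a standard error of 0.11 (unadjusted p = 0.218 in edgeR). An antisense gene, Gm48682, overlaps the exons of Nid1. Nid2 was at 4.10, 6.18 and 4.47 CPM in NS and 4.27, 5.88 and 4.61 CPM in WS. Replicate 2 was highest in both groups, and the means were 4.92 CPM in NS and in WS. Its exons overlap Rtraf and several of its values did not come back as whole counts, so its level is uncertain.

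Perlecan, encoded by Hspg2, is the heparan sulfate proteoglycan that binds growth factors in vessel walls. It was at 12.1, 14.7 and 15.3 CPM in NS and 15.3, 14.4 and 19.5 CPM in WS. The groups overlapped and WS replicate 3 stood highest, with a change of 0.22 and a standard error of 0.14 (unadjusted p = 0.137 in edgeR). Without WS replicate 3 the change was 0.081, and without NS replicate 1 it was 0.13. Agrn, the agrin gene, is also expressed by neurons and was the most abundant member, at 123, 134 and 123 CPM in NS and 132, 124 and 122 CPM in WS. The groups covered the same range, and the change was -0.01 with a standard error of 0.08.

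The other members include the small proteoglycans that coat collagen fibrils and the collagens that form neither fibrils nor sheets. Dcn, the decorin gene, was at 24.1, 13.5 and 13.04 CPM in NS and 22.6, 19.2 and 15.3 CPM in WS. NS replicate 1 was the highest of all libraries, and the change of 0.17 had a standard error of 0.22 (unadjusted p = 0.439 in edgeR). With single libraries left out it ran from 0.02 without NS replicate 3 to 0.52 without NS replicate 1, where the unadjusted p in edgeR was 0.00883. It was also 0.04 without NS replicate 2, 0.03 without WS replicate 1 and 0.31 without WS replicate 3. Lum, the lumican gene, was at 3.34, 3.00 and 2.80 CPM in NS and 2.43, 3.22 and 3.22 CPM in WS. The groups overlapped, with a change of -0.04 and a standard error of 0.21.

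Col14a1, a collagen that links fibrils to each other, was at 1.64, 1.69 and 1.49 CPM in NS and 1.72, 1.92 and 2.46 CPM in WS. Its groups touched but did not overlap, and the change was 0.34 with a standard error of 0.25 (unadjusted p = 0.196 in edgeR), or 0.18 without WS replicate 3. Col13a1, a transmembrane collagen of cell contacts, was the one member with all WS libraries lower, at 1.13, 1.44 and 0.994 CPM in NS and 0.770, 0.990 and 0.821 CPM in WS. With 16.5 counts on average, its change of -0.46 had a standard error of 0.30 (unadjusted p = 0.152 in edgeR), and it was -0.31 without NS replicate 2. Of 8 tested fibril-associated collagens, 7 had a change above 0, with a median of 0.09. The type VI chains, which form beaded microfilaments around cells, had a median of 0.06, with 4 of 5 above 0. For the 3 tested transmembrane collagens the median was 0.03. Besides Col2a1, the members not tested were Col6a6, Col7a1, Col9a1 and Col17a1, and the untested members had 2 to 16 counts in any library.

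Scaled to transcript length, 5 of the 8 highest levels were those of basement membrane chains. Agrn led with 17.4 CPM per kb of its longest coding transcript, followed by Dcn with 10.2, Col4a1 with 8.90 and Col4a2 with 7.91 CPM per kb. The neuronal collagen Col19a1 was at 5.94 CPM per kb, Lamc1 at 5.52, Lamb2 at 5.35 and the type VI chain Col6a1 at 5.26. Col1a2 and Col1a1 stood at 4.18 and 3.21 CPM per kb, Col3a1 at 1.28 and Lama2 at 1.40. The lowest was Col2a1 with 0.0527 CPM per kb. The order depends on the length chosen, since Dcn fell to 3.07 CPM per kb when the length of all its annotated exons was used.

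**Figure D3:**
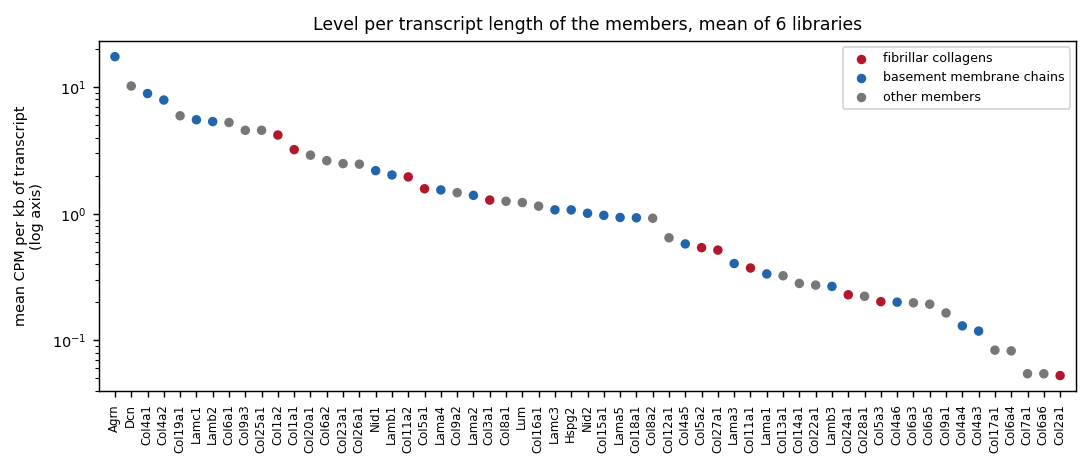
Mean level over 6 libraries per kb of the longest coding transcript (log axis) for the members, in red for fibrillar collagens, blue for basement membrane chains and grey for the others. Agrn is highest at 17.4 and Col2a1 lowest at 0.0527 CPM per kb.

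The libraries themselves were not alike, over the whole table as well as for these genes. WS replicate 3 held the highest value for 20 of 55 tested members and NS replicate 1 the lowest for 18. The same was not counted over all genes tested, so these counts do not set the members apart from other genes. Col1a1, Col1a2, Col23a1 and Dcn, 4 members (7.27%), were highest in replicate 1 and lowest in replicate 3 of both groups, a pattern met in 4.48% of all genes tested. The same pattern was shown by 5 of 13 meningeal fibroblast markers outside the members, Aldh1a2, Slc6a13, Slc22a6, Slc47a1 and Fmod. These genes were singled out after their values were seen.

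Marker lists of the cells that make these proteins also leaned towards WS. All 13 meningeal fibroblast markers had a fitted change above 0, with a median of 0.16, and the transporter gene Slc47a1 had an unadjusted p of 0.00435 in edgeR with a change of 0.87. Their summed level, led by Igf2, was 300.4, 267 and 279.6 CPM in NS and 300.0, 359 and 253 CPM in WS, and did not separate the groups. That sum was carried by few genes, since Igf2 alone made up 40.8% of it and Igf2, Igfbp2 and Fmod together 68.8%. Both Igf2 and Igfbp2 were highest in WS replicate 2, at 157 and 74.2 CPM. All 15 endothelial markers were above 0, with a median of 0.09 and sums, led by Slc2a1, of 479, 477 and 540 CPM in NS and 554, 509 and 593 CPM in WS. One endothelial gene stood apart, Pecam1 (CD31), at 17.2, 16.3 and 19.2 CPM in NS and 22.2, 33.0 and 41.5 CPM in WS. For its change of 0.87 the adjusted p was 0.813 (Benjamini-Hochberg, edgeR's quasi-likelihood test) and 9.48e-04 once the replicate block was added, and it was named after its values were seen.

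Pericyte markers, led by Rgs5, were above 0 in 8 of 10 cases with a median of 0.11, and their sums were 286 to 290 CPM in NS and 293 to 340 CPM in WS. For smooth muscle, led by Mylk, all 5 tested markers were above 0 with a median of 0.18 and sums of 46.1 to 62.0 CPM in NS and 60.3 to 67.5 CPM in WS. All 10 astrocyte markers, led by Slc1a2, were above 0 as well, with a median of 0.13 and sums of 4587 to 5100 CPM in NS and 4810 to 5935 CPM in WS. Cortical neuron markers, led by Slc17a7, were above 0 in 3 of 8 cases with a median of -0.02 and sums of 3162 to 3330 CPM in NS and 2857 to 3616 CPM in WS. The part of cell composition in the higher levels of the members was not tested.

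**Figure D4:**
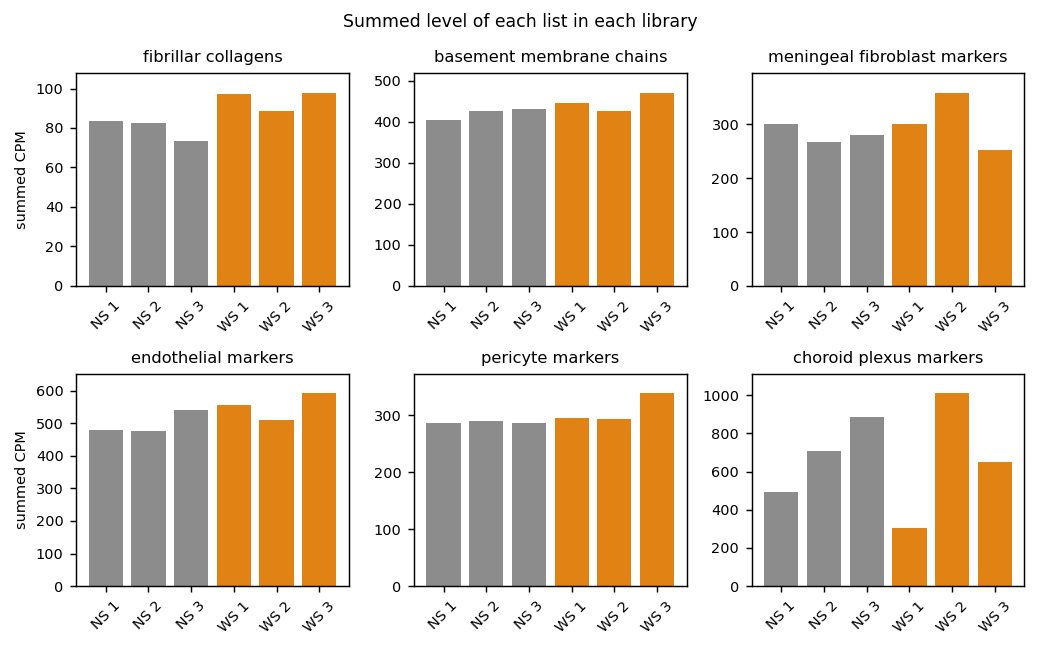
Summed CPM (y axis, from 0) of 2 groups of members and 4 marker lists in each NS library (grey) and WS library (orange). The fibrillar sum is 73.4 to 83.3 CPM in NS and 88.5 to 98.0 CPM in WS, while the choroid plexus sum runs from 304 to 1012 CPM within WS.

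A few members varied widely between libraries of the same group, in step with markers of the choroid plexus, a tissue of the ventricles. These markers summed to 495, 706 and 888 CPM in NS and 304, 1012 and 648 CPM in WS, with 3 of 9 above 0 and a median of -0.09. Enpp2, which other brain cells also express, made up 89.2% of that sum, and without it the sums were 46.3, 67.7 and 109.5 CPM in NS and 13.4, 133 and 68.8 CPM in WS. Col8a2, a short-chain collagen of the type VIII network, was at 2.40, 3.93 and 5.71 CPM in NS and 1.78, 7.11 and 3.03 CPM in WS. Its partner Col8a1 was at 5.74, 6.49 and 7.02 CPM in NS and 3.61, 9.40 and 6.19 CPM in WS. For both, the 6 libraries stood in exactly the order of the choroid plexus sum, as did those of 0.204% of all genes tested. In the sum without Enpp2, NS replicate 2 and WS replicate 3 change places, so that order is no longer exactly theirs. The highest library exceeded the lowest 4.002-fold for Col8a2 and 2.60-fold for Col8a1. Col9a3 was at 9.33, 15.8 and 16.5 CPM in NS and 11.1, 17.6 and 13.1 CPM in WS, the same order save for the 2 lowest libraries. Its exons overlap Tcfl5 and 3 of its values did not come back as whole counts, so its level is uncertain. These 3 genes had group changes between -0.02 and 0.001, and the part of choroid plexus tissue in their levels was not tested.

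**Figure D5:**
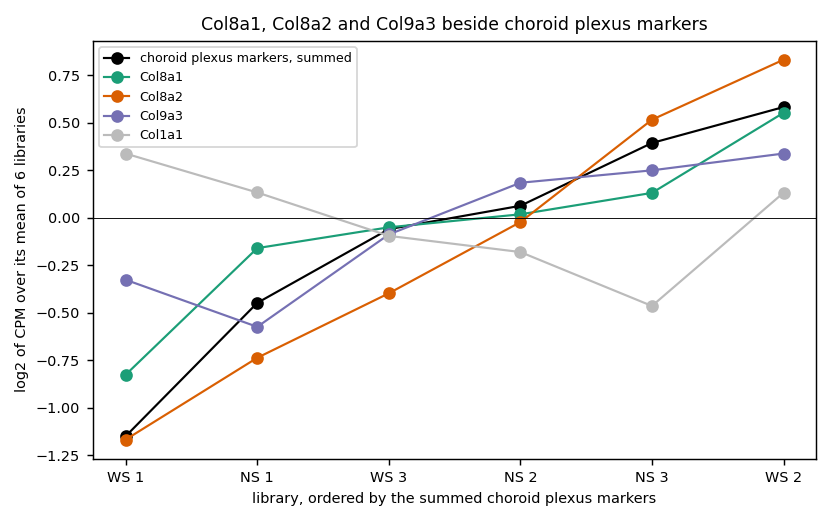
Log2 of CPM over its mean of 6 libraries (y axis) for the summed choroid plexus markers (black), Col8a1, Col8a2, Col9a3 and, for contrast, Col1a1, with libraries in the order of the choroid plexus sum (x axis). Col8a1 and Col8a2 increase at each step from WS 1 to WS 2, while Col1a1 does not.

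The genes that assemble, bind and remove this matrix were read in the same fit. Of 102 genes on that list 95 were tested, 0 were called by edgeR's quasi-likelihood test or by DESeq2, 72 had a change above 0 (53.0% of all genes did). At an unadjusted p under 0.05, 5 of these genes were above 0, against 0.866% of all genes, and 0 below, against 0.327%. With the replicate block there were 6 above and 1 below, against 1.38% and 0.386% of all genes, and the added ones were Itgb4 and Adamts5. Of 26 tested genes for assembly and crosslinking, 22 were above 0 with a median of 0.13. Plod1, which hydroxylates lysines in collagen so that chains can be crosslinked, was at 25.4, 30.6 and 30.1 CPM in NS and 32.9, 34.0 and 34.7 CPM in WS, and the groups did not overlap. Its change was 0.24 with a standard error of 0.10 (unadjusted p = 0.0347 in edgeR), and 0.16 without NS replicate 1. P3h3, a prolyl 3-hydroxylase family member, and Pcolce, which enhances the removal of the fibrillar procollagen tail, had changes of 0.24 and 0.28, the latter 0.080 without WS replicate 2.

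Receptors leaned the same way, with 20 of 23 above 0 and a median of 0.13. Itga7, the integrin chain that binds laminin on muscle and mural cells, had a change of 0.35 (unadjusted p = 0.0335 in edgeR), with NS libraries at 8.13 to 10.0003 CPM and WS libraries at 9.90 to 13.7 CPM, and the change was 0.23 without WS replicate 1. Itgb4, a laminin-binding integrin chain, had a change of 0.29 (unadjusted p = 0.111 in edgeR, and 0.0275 with the replicate block), which ran from 0.13 without WS replicate 2 to 0.47 without NS replicate 2. Ddr1, a collagen-binding kinase, had a change of 0.16, or 0.078 without NS replicate 1. Genes of turnover were divided, with 8 of 14 above 0 and a median of 0.06, and changes of 0.11 for Timp3, 0.20 for Timp4 and 0.22 for the protease gene Adamts4. Without WS replicate 3 the change of Timp4 was 0.13. The change furthest from 0 on that list was that of the protease gene Adamts5, named after its values were seen, at -0.53 with a standard error of 0.30 (unadjusted p = 0.109 in edgeR, and 0.0293 with the replicate block). Of 32 other matrix genes 22 were above 0 with a median of 0.09. Sparc, a collagen-binding protein that endothelial cells and glia secrete, was at 276, 240.5 and 242 CPM in NS and 294, 286 and 374 CPM in WS, without overlap. Its change was 0.33 with a standard error of 0.11 (unadjusted p = 0.00912 in edgeR), and 0.20 without WS replicate 3. Emilin1, a protein of elastic fibres, and Fbln1, a basement membrane glycoprotein, had changes of 0.60 and 0.32 and groups that did not overlap (unadjusted p = 0.0158 and 0.0208 in edgeR). Ntn4, the short laminin relative that loosens laminin networks, had a change of -0.21 (unadjusted p = 0.158 in edgeR), or -0.32 without WS replicate 3 (unadjusted p = 0.0447).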

How the data were processed

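Bulk RNA-seq of S1 cortex (3 NS, 3 WS libraries) was read from the deposited table. Reads of rRNA and of poor quality were discarded by the authors, and HISAT2 was used for alignment (build mm10 per the labels). The counting tool is not given in the sources used here. The authors deposited for each gene an expected count averaged over 6 libraries and the SD of the counts. The authors also deposited 1 score per library, a z value made by subtracting that mean and dividing by that SD. Other deposited columns (the authors' fold changes and p-values) were not used. Counts were computed back as mean plus z times SD and rounded. Of values for 13418 genes with little rounding uncertainty, 91.0% lay within 0.1 of a whole number. The column of WS replicate 3 has an extra letter in its name and was taken as WS because the authors' WS mean includes it. A count test or, for FPKM, a log test had been planned, and the count test was applied to these recovered counts. No 2 libraries agreed within sampling noise (lowest chi-square per degree of freedom 4.49). Depth was 15660395 to 17276168 counts, and genes with few counts are measured less precisely.

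edgeR 4.0.16 (TMM, filterByExpr, quasi-likelihood F test, Benjamini-Hochberg over 13747 genes) was run in R 4.3.3, with limma 3.58.1 as its base, and DESeq2 1.42.0 as an alternative, beside Python 3.11.15. Called genes had a log2 fold change beyond 1 in either direction with an adjusted p under 0.05. The biological coefficient of variation was 10.1%. The scripts were run on simulated counts of 13747 genes, 200 of them changed. Deviations of same-numbered libraries from their group means correlated at 0.34, 0.23 and 0.12 over 13747 genes, so the numbers of the labels were treated as pairs, though the third correlation is weak and the labels do not name shared animals. Values with this block stand beside the members and pathway genes whose side of the unadjusted threshold they change. Values in every library are given for members with an unadjusted p under 0.05, for those of at least 10 counts whose groups do not overlap, and for fixed main chains. Pathway genes are named at an unadjusted p under 0.05 or among the 3 largest changes of their role at 100 or more counts. Members and lists were chosen with earlier results of these data known. Col11a2, Col8a1, Col8a2, Col9a3, Adamts5, Pecam1 and Slc47a1 were named with more values after these were seen. Fmod and Ogn stand in both the meningeal and the other matrix list, and Vtn in the pericyte and the other matrix list. Gene positions are from GENCODE on GRCm38. The values of 1 member are not reported here by themselves or in the plots. Of the members, 17 have exons that overlap another annotated gene. Alternatives were other normalizations, no filter, DESeq2, the block, other thresholds and each library left out.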

Additional observations from a re-analysis of the deposited data

How the results depend on the processing

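No member was called under any of the alternatives run, and the fibrillar and basement membrane medians and sums stayed above 0 in all of them. The count of members with an unadjusted p under 0.05, 4, became 7 with the replicate block (same-numbered NS and WS libraries as pairs) and 2 with DESeq2, and 1 to 5 with single libraries left out, the lowest without NS replicate 3. The fibrillar median ranged from 0.13 to 0.28 with single libraries left out. Within the members, the block took that count from 2 to 4 for fibrillar collagens and from 0 to 1 for type IV collagens. It left the fibrillar and basement membrane medians at 0.28 and 0.08. Over 35 genes with values in the text, 343 alternative values kept their direction and 16 did not, in 8 genes. With the block, the log2 fold change was -0.0023 for Lama4 and 0.0057 for Nid2. With single libraries left out it ran from -0.045 to 0.031 for Agrn, -0.22 to 0.13 for Lama4, -0.070 to 0.18 for Lama5, -0.041 to 0.15 for Lamb1, -0.12 to 0.081 for Lum, -0.16 to 0.20 for Nid2, -0.025 to 0.47 for Adamts4 and -0.026 to 0.17 for Timp3. The causes were not tested. How often the adjusted test would call changes as small as those fitted for the members was not simulated.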
